A study of Drosophila melanogaster with 15 samples.

Results

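Mef2>Deaf1 larvae carried UAS-Deaf1 together with the driver Mef2-Gal4, and Mef2>+ larvae carried the same driver crossed to the w1118 stock, with no UAS transgene. The comparison used the 3 Mef2>Deaf1 and 3 Mef2>+ libraries, chosen by their genotype labels, which are 6 of the 15 libraries of 5 genotypes in the series. The 3 libraries each of Mef2>whiteRNAi, Mef2>Deaf1RNAi and Mef2>Gsk3CA also carried Mef2-Gal4 and served as context. The last are called the libraries labelled Mef2>Gsk3CA, because levels of the Gsk3 gene sgg in them overlapped those of Mef2>+. The sgg levels were 335 to 526 CPM in these libraries and 254 to 433 CPM in Mef2>+ (CPM, the counts of a gene per 1000000 counts on genes). The paper reports raised Gsk3 mRNA in this genotype. Whether reads of that transgene fall on the exons counted as sgg is not stated in the sources used here. RNA was taken from Drosophila melanogaster larvae opened as fillets, in which body wall muscle is the main tissue and epidermis stays attached. Mef2-Gal4 drives transgenes in body wall muscle, in visceral muscle and in a few brain cells, so the transgene was not limited to the labelled tissue. The labels give no larval age or sex for the RNA samples, and whether the genotypes shared a genetic background is not stated in the sources used here.

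Deaf1 is a transcription factor with a SAND domain that binds DNA and a MYND zinc finger that binds other proteins. In flies it is known from the control of homeotic gene enhancers in the embryo and from the control of immune genes. Larval body wall muscles are multinucleate fibres that grow by enlarging rather than by dividing, and they carry large amounts of RNA for contractile proteins, glycolytic enzymes and mitochondria. A fillet also holds RNA of the epidermis, fat body, blood cells, nerves and remnants of gut or glands, and cuticle protein genes of the epidermis switch on and off as the larva moults and prepares to pupate.

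The files held 19914820 to 22931055 counts on genes per Mef2>Deaf1 library and 16186361 to 21438118 per Mef2>+ library. Levels are given as CPM scaled by the TMM factors of edgeR, and each row of 3 values follows the replicate numbers 1, 2 and 3. The log2 CPM values of replicates correlated across genes at 0.954 to 0.982 within Mef2>Deaf1. Within Mef2>+, replicates 1 and 2 correlated at 0.992, whereas replicate 3 stood apart at 0.945 and 0.932 with them. Genes are not independent replicates, so these coefficients describe likeness only. Contractile genes were abundant in all 6 libraries, as the muscle label has it: the 30 sarcomere genes summed to 46577, 39534 and 35511 CPM in Mef2>Deaf1 and to 98626, 92678 and 132196 CPM in Mef2>+.

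The targeted gene was only slightly raised in these counts, whereas the paper reports a significant rise of Deaf1 mRNA in this genotype. Deaf1 (FBgn0013799) had 40.6, 41.4 and 47.7 CPM in Mef2>Deaf1, against 35.7, 37.0 and 31.8 CPM in Mef2>+. The libraries did not overlap, but the log2 fold change of 0.31 (SE 0.10) had an edgeR adjusted p of 0.058, and an exact two-sided permutation test gave p = 0.1, the smallest that 3 against 3 libraries can give. Whether reads of the transgene fall on the exons counted as Deaf1 is not stated in the sources used here. The eye pigment gene w, used as a marker in many transgenes, had 32.1, 30.7 and 30.2 CPM in Mef2>Deaf1 and 40.5, 35.8 and 35.6 CPM in Mef2>+ (log2 fold change −0.27, SE 0.19, edgeR adjusted p = 0.42).

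Of 10930 genes tested, 1360 (12.4%) had an adjusted p under 0.05 in edgeR's quasi-likelihood test, 553 (5.06%) higher and 807 (7.38%) lower in Mef2>Deaf1. Counts of called list members given below are to be read beside these shares. The falls were larger than the rises. The median log2 fold change was 0.64 among the higher genes and −0.80 among the lower genes, and changes of at least 8-fold numbered 27 higher and 83 lower. Over all genes tested the median was −0.02. The TMM scaling takes most genes as unchanged, so this median cannot check the scale. Fits without Mef2>Deaf1 replicates 1, 2 and 3 in turn called 813, 893 and 711 genes, and fits without Mef2>+ replicates 1, 2 and 3 called 826, 958 and 826. A second comparison is given beside the results below, Mef2>Deaf1 against Mef2>whiteRNAi, a control that carries a UAS transgene. It shares the 3 Mef2>Deaf1 libraries and called 408 genes higher (3.73%) and 309 lower (2.83%).

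Which of the other libraries a changed gene resembled split the called genes into different kinds. In 243 of the 553 higher and 146 of the 807 lower genes, all 3 Mef2>Deaf1 libraries lay beyond all 12 other libraries of the series. In 216 of the lower and 79 of the higher genes it was instead the 3 Mef2>+ libraries that lay beyond the other 12. Over all genes tested, Mef2>Deaf1 lay above the other 12 in 377 and below them in 191, and Mef2>+ lay above the other 12 in 494 and below them in 130. The plot of list members shows how the changes were spread over 22 groups of related genes.

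**Figure D1:**
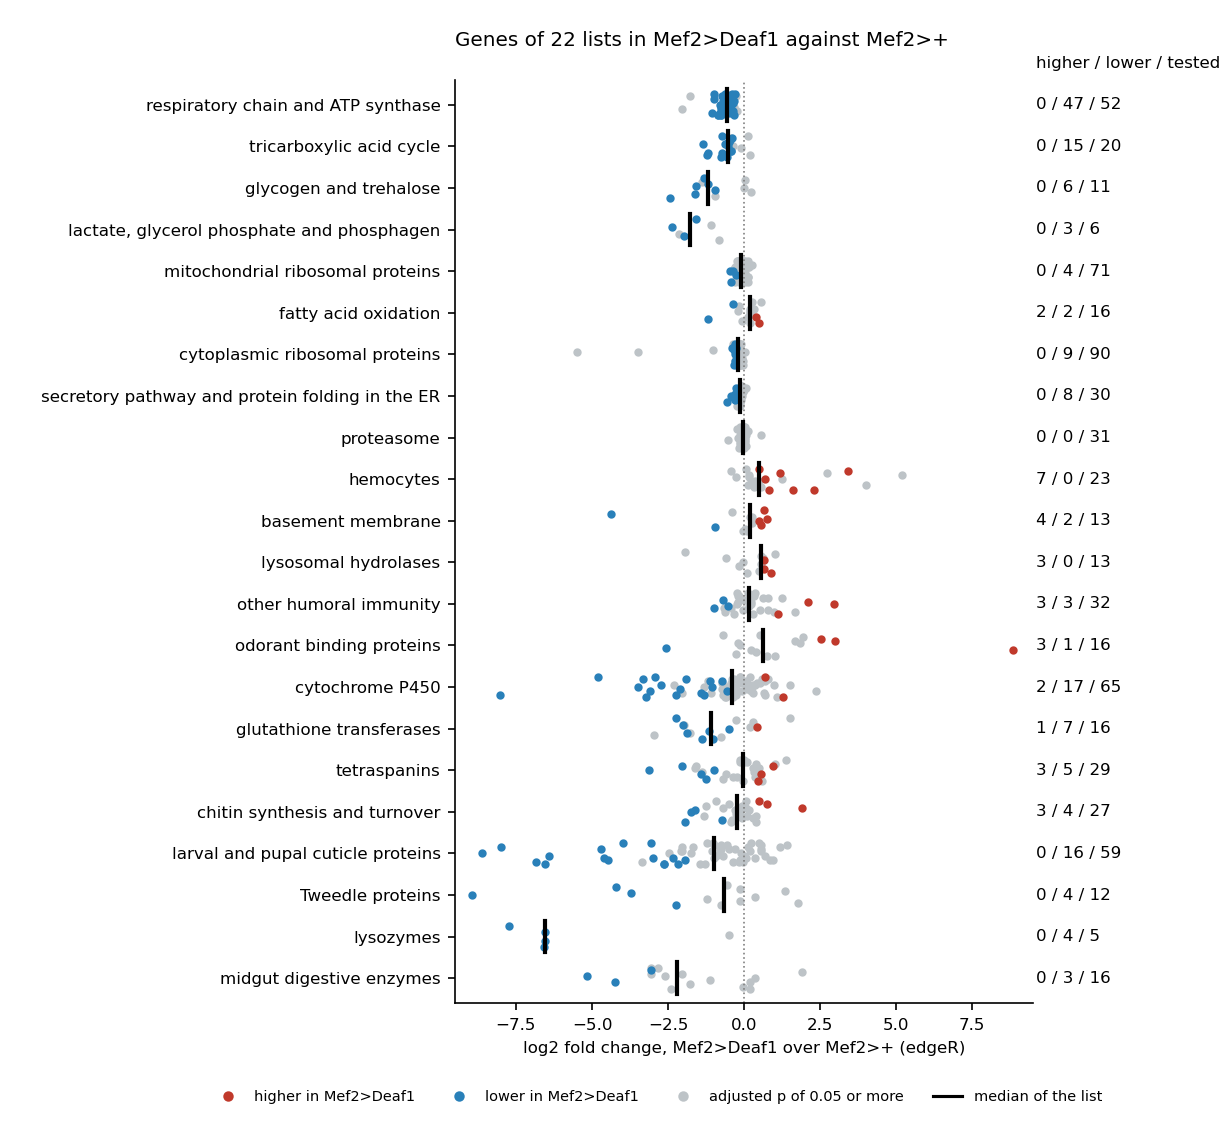
Each point is 1 tested gene, placed by its log2 fold change in Mef2>Deaf1 over Mef2>+ (horizontal axis) within its list (vertical axis); red points were higher and blue points lower at an adjusted p under 0.05, grey points did not pass, and black bars are list medians. Nearly all respiratory chain genes sit just left of 0 (47 of 52 lower, median −0.58), whereas a few cuticle, Tweedle, lysozyme and P450 genes lie far to the left and the called blood cell genes all lie to the right.

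Genes of mitochondrial energy production were lower nearly throughout. Of 52 tested nuclear genes for the respiratory chain and ATP synthase, 47 were lower in Mef2>Deaf1, none was higher and all 52 log2 fold changes were negative, with a median of −0.58 beside −0.02 over all genes. The summed level of the list was 4491, 4633 and 4093 CPM in Mef2>Deaf1 and 6724, 6360 and 7796 CPM in Mef2>+. CG9603, a subunit of cytochrome c oxidase (COX7A), had 99.99, 94.2 and 88.6 CPM in Mef2>Deaf1, against 189, 187 and 209 CPM in Mef2>+ (log2 fold change −1.05, SE 0.11, edgeR adjusted p = 2.0e-04). The groups were far apart relative to the spread of their replicates. CG4769 (cytochrome c1, in complex III) had 58.5, 57.1 and 48.0 CPM in Mef2>Deaf1, against 107, 93.2 and 126 CPM in Mef2>+ (−0.996, SE 0.15, edgeR adjusted p = 0.0020). CG1746, the c subunit of the ATP synthase rotor, had 446, 470 and 417 CPM in Mef2>Deaf1, against 764, 699 and 941 CPM in Mef2>+ (−0.85, SE 0.14, edgeR adjusted p = 0.0026). In bulk RNA, fewer cells of a type and less RNA per cell cannot be told apart.

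The list of the tricarboxylic acid cycle, which feeds electrons to that chain, fell as well, with 15 of 20 genes lower, none higher and a median of −0.52. This list also held the pyruvate dehydrogenase genes l(1)G0334 and CG11876 and the cytosolic malate dehydrogenase gene Mdh1, which are not cycle enzymes. The citrate synthase gene kdn had 66.9, 64.1 and 67.1 CPM in Mef2>Deaf1, against 157, 138 and 209 CPM in Mef2>+ (log2 fold change −1.35, SE 0.19, edgeR adjusted p = 0.0011). Mdh2, the mitochondrial malate dehydrogenase, had 122, 114.7 and 100.3 CPM in Mef2>Deaf1, against 239.96, 222 and 328 CPM in Mef2>+ (−1.23, SE 0.18, edgeR adjusted p = 0.0014). The subunits of NAD-dependent isocitrate dehydrogenase moved together, with log2 fold changes of −1.18 for l(1)G0156 (Idh3a), −0.74 for CG6439 (Idh3b) and −0.73 for CG5028 (Idh3g), all called. Scsalpha and skap, subunits of succinyl-CoA synthetase, did not pass (−0.10 and 0.19). Proteins of the mitochondrial ribosome, by contrast, had 4 of 71 genes lower and a median of −0.12. That count was 2, 3 and 0 without Mef2>Deaf1 replicates 1, 2 and 3 and 2, 3 and 1 without Mef2>+ replicates 1, 2 and 3. Fatty acid oxidation had 2 of 16 genes higher and 2 lower with a median of 0.19, beside 5.06% higher and 7.38% lower over all genes. Of the higher calls 1 was left without Mef2>Deaf1 replicate 2 or with the replicate block and none without any other library, and without Mef2>Deaf1 replicate 3 there was 1 lower call. None of the 37 genes of the mitochondrial genome had a count in the files, so they were not tested.

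Leaving out 1 library at a time called 38 to 46 respiratory chain genes and 10 to 14 genes of the tricarboxylic acid cycle list. Against Mef2>whiteRNAi, 1 gene of each list was lower and the medians were −0.07 and −0.08. The plot of summed levels shows the Mef2>whiteRNAi libraries near those of Mef2>Deaf1 for both lists.

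**Figure D2:**
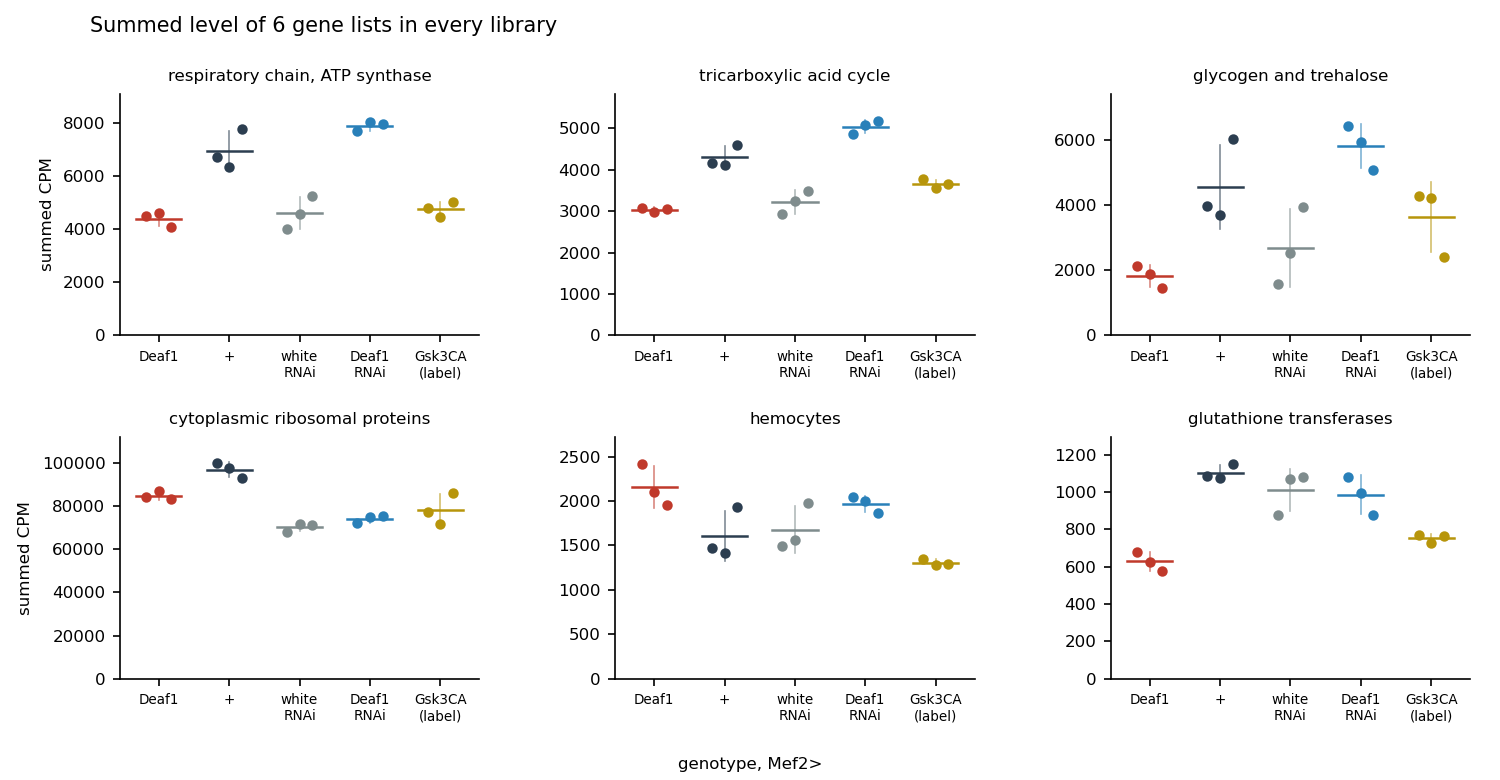
Summed CPM (vertical axes, from 0) of the genes of 6 lists in each of the 15 libraries, grouped by genotype (horizontal axes); points are libraries, horizontal lines are means and thin vertical lines are 1 SD of 3 libraries. For the respiratory chain list Mef2>Deaf1 lies between 4093 and 4633 and Mef2>+ between 6360 and 7796, for hemocyte genes Mef2>Deaf1 lies above Mef2>+ by a narrow margin (lowest 1960 against highest 1933), and for cytoplasmic ribosomal proteins Mef2>+ lies highest.

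Called genes for glycogen and trehalose metabolism and for the ends of glycolysis were lower too. Glycolytic enzymes themselves had 10 of 11 genes lower (median −1.52) and sarcomere proteins 21 of 29 (median −1.26). Of 11 genes for glycogen and trehalose metabolism 6 were lower and none higher, with a median of −1.19. CG33138, the glycogen branching enzyme (AGBE), had 34.4, 28.0 and 25.3 CPM in Mef2>Deaf1, against 119, 96.1 and 255.4 CPM in Mef2>+ (log2 fold change −2.42, SE 0.37, edgeR adjusted p = 0.0019). Pgm, phosphoglucomutase, had 314, 282 and 216 CPM in Mef2>Deaf1, against 748, 701 and 1045 CPM in Mef2>+ (−1.62, SE 0.29, edgeR adjusted p = 0.0038). CG9485, the debranching enzyme, was lower too (−1.32, SE 0.27, edgeR adjusted p = 0.0082), and Treh, which splits the blood sugar trehalose, was not (−0.01, SE 0.12, edgeR adjusted p = 0.98). Mef2>+ replicate 3 was the highest of the 6 libraries for each of the 3 lower genes. Without Mef2>Deaf1 replicates 1, 2 and 3 the glycogen count was 4, 3 and 3, and without Mef2>+ replicates 1, 2 and 3 it was 5, 6 and 3. The glycolytic count was 8, 8 and 4 and then 10, 10 and 7 in the same fits. Against Mef2>whiteRNAi no gene of either list passed, and 1 sarcomere gene was lower (median −0.22).

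In the list of lactate, glycerol phosphate and phosphagen genes 3 of 6 were lower, and they were called in each of the 6 fits that left out a library. Gpo-1, the mitochondrial glycerol phosphate dehydrogenase, had 11.5, 11.05 and 8.96 CPM in Mef2>Deaf1, against 39.2, 34.3 and 89.8 CPM in Mef2>+ (log2 fold change −2.37, SE 0.32, edgeR adjusted p = 9.5e-04). Its cytosolic partner in the glycerol phosphate shuttle, Gpdh, changed by −1.57 (SE 0.32, edgeR adjusted p = 0.0076), and ImpL3, lactate dehydrogenase, by −1.99 (SE 0.37, edgeR adjusted p = 0.0051). Argk, the arginine kinase that buffers ATP in muscle, had 3750, 3516 and 2556 CPM in Mef2>Deaf1 and 4684, 4134 and 8477 CPM in Mef2>+, and did not pass (−0.82, edgeR adjusted p = 0.21). Against Mef2>whiteRNAi none of the 6 was called (median −0.23).

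Genes for excitation of the muscle fibre changed in part. The calcium handling list also held resilin, which is not a calcium handling gene. Of the 10 tested genes on this list 3 were lower and 1 higher. The higher gene was called in none of the 6 fits without 1 library, which called 2 or 3 lower, nor with the replicate block. Ca-P60A, the SERCA pump that returns calcium to the sarcoplasmic reticulum, had 894, 754 and 714 CPM in Mef2>Deaf1, against 1660, 1501 and 2694 CPM in Mef2>+ (log2 fold change −1.31, SE 0.26, edgeR adjusted p = 0.0063). Rya-r44F, the ryanodine receptor that releases that calcium, had 85.1, 81.0 and 70.6 CPM in Mef2>Deaf1, against 215, 195 and 315 CPM in Mef2>+ (−1.61, SE 0.33, edgeR adjusted p = 0.0086). Both were called in all 6 fits without 1 library. At the neuromuscular junction 2 of 7 genes on the glutamate receptor list, which also holds Neto and dlg1, were lower. They were GluRIIC, an essential receptor subunit (−1.18, SE 0.22, edgeR adjusted p = 0.0055), and the scaffold dlg1 (−0.43, SE 0.09, edgeR adjusted p = 0.0076). GluRIIA, one of the alternative subunits, had 72.1, 61.8 and 78.1 CPM in Mef2>Deaf1 and 89.5, 88.1 and 59.0 CPM in Mef2>+, and the groups overlapped. Against Mef2>whiteRNAi the log2 fold changes of Ca-P60A and Rya-r44F were 0.04 and 0.00.

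Most cytoplasmic ribosomal protein genes were lower by a small amount. Of 90 tested genes 89 had a negative log2 fold change, with a median of −0.19 and a lowest value of −5.49. Of the 90, 9 were called lower, where 7.38% of all genes were lower. The summed level was 84257, 87041 and 83300 CPM in Mef2>Deaf1 and 99860, 97768 and 93102 CPM in Mef2>+, and the groups did not overlap. In 66 of the 90 genes the Mef2>+ libraries lay above the other 12, beside 494 of all 10930 genes tested. The count of calls depended on the tool, with 57 in DESeq2, 9 in limma voom, 1 with the replicate block and 0 or 1 without any 1 library, and against Mef2>whiteRNAi 19 genes were higher (median 0.26). Genes of the secretory pathway and of protein folding in the endoplasmic reticulum moved by similar amounts, with 8 of 30 lower (median −0.15) and 4 with the replicate block. Without Mef2>Deaf1 replicates 1, 2 and 3 the count was 1, 2 and 1, and without Mef2>+ replicates 1, 2 and 3 it was 1, 2 and 4. Gp93, the reticulum form of Hsp90, fell in each of those fits and had 370, 379 and 340 CPM in Mef2>Deaf1, against 561, 556 and 502 CPM in Mef2>+ (log2 fold change −0.57, SE 0.09, edgeR adjusted p = 0.0027). None of the 31 proteasome genes was called (median −0.03).

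Some genes of blood cells were higher. Hemocytes are the blood cells of the fly, mostly plasmatocytes that engulf bacteria and dead cells. Of 23 tested genes on the hemocyte list 7 were higher and none lower, where 5.06% of all genes were higher, with a median of 0.50 and 21 positive values, and 5 to 7 were called when 1 library was left out. The phagocytosis receptor gene nimC1 had 134, 117 and 126 CPM in Mef2>Deaf1, against 12.2, 13.7 and 9.69 CPM in Mef2>+ (log2 fold change 3.41, SE 0.18, edgeR adjusted p = 9.9e-07). No other genotype exceeded 66.7 CPM. The GATA factor srp, required to form blood cells and fat body, had 93.7, 82.1 and 94.1 CPM in Mef2>Deaf1, against 42.8, 44.5 and 32.4 CPM in Mef2>+ (1.17, SE 0.17, edgeR adjusted p = 0.0015). The zinc finger factor zfh1 (0.82, SE 0.13, edgeR adjusted p = 0.0019) and crq, a receptor for dying cells (0.67, SE 0.13, edgeR adjusted p = 0.0059), rose by less. CG42640, a prophenoloxidase (PPO3) made by lamellocytes, was low but higher in all 3 Mef2>Deaf1 libraries, with 2.43, 1.42 and 1.83 CPM, against 0.409, 0.405 and 0.332 CPM in Mef2>+ (2.29, SE 0.51, edgeR adjusted p = 0.012).

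Other abundant markers were not called. Hml, a secreted clotting protein of plasmatocytes, had 562, 453 and 403 CPM in Mef2>Deaf1 and 359, 347 and 551 CPM in Mef2>+, which overlapped (0.17, edgeR adjusted p = 0.76). The crystal cell prophenoloxidases proPO-A1 (PPO1) and PO45 (PPO2) also overlapped, at 98.8 to 199.9 CPM in Mef2>Deaf1 and 80.0 to 157 CPM in Mef2>+, and at 139 to 237 CPM in Mef2>Deaf1 and 132 to 253 CPM in Mef2>+. The summed level of all hemocyte genes in the files was 1960 to 2418 CPM in Mef2>Deaf1 and 1418 to 1933 CPM in Mef2>+. Mef2>Deaf1RNAi at 1870 to 2042 CPM and Mef2>whiteRNAi at 1488 to 1978 CPM overlapped Mef2>Deaf1. The libraries labelled Mef2>Gsk3CA held 1275 to 1351 CPM. Against Mef2>whiteRNAi 9 genes of the list were higher and none lower. A share of blood cells in the fillets was not measured, and its part in these values was not tested.

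Proteins that blood cells and fat body lay down around muscle gave mixed results. Of 13 basement membrane genes 4 were higher and 2 lower, beside 5.06% higher and 7.38% lower over all genes. LanB1, a laminin chain, had 394, 351 and 382 CPM in Mef2>Deaf1, against 238, 238 and 248 CPM in Mef2>+ (log2 fold change 0.64, SE 0.10, edgeR adjusted p = 0.0024), and all 3 Mef2>Deaf1 libraries lay above the other 12. The chains LanA (0.57, edgeR adjusted p = 0.015) and LanB2 (0.74, edgeR adjusted p = 0.046) were also called, LanA not without Mef2>Deaf1 replicate 1 or 3 (adjusted p = 0.059 and 0.070) or Mef2>+ replicate 1 or 2 (0.070 and 0.064), and LanB2 in none of the 6 fits without 1 library (0.079 to 0.15). Collagen IV, encoded by Cg25C and vkg, overlapped between the groups (0.18 and 0.10, neither called). The calls were uneven between fits. With the replicate block LanB2 had an adjusted p of 0.079 and the list 3 higher and 1 lower, and without Mef2>Deaf1 replicates 1, 2 and 3 and then Mef2>+ replicates 1, 2 and 3 the list had 1, 2, 1, 1, 1 and 3 higher genes. LanB1 was called in each of these fits. Among 13 lysosomal hydrolases 3 were higher and none lower, beside the same shares over all genes. Hexo2, a hexosaminidase, had 163, 159.8 and 164 CPM in Mef2>Deaf1, against 94.2, 90.4 and 80.4 CPM in Mef2>+ (0.88, SE 0.15, edgeR adjusted p = 0.0037). The alpha-mannosidase gene CG5322 (LManI) changed by 0.66 (SE 0.12, edgeR adjusted p = 0.0043). The protease cathD of the same compartment had 514, 522 and 618 CPM in Mef2>Deaf1 and 936, 958 and 603 CPM in Mef2>+, and did not pass (−0.59, edgeR adjusted p = 0.15).

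Of 32 genes of humoral immunity other than the antimicrobial peptides, 3 were higher and 3 lower (median 0.15). These counts are close to the 5.06% higher and 7.38% lower over all genes, so they are not a result about the list. IM2, a short secreted peptide of the Bomanin family that Toll signalling induces, had 9.54, 5.18 and 15.3 CPM in Mef2>Deaf1, against 1.59, 1.42 and 0.831 CPM in Mef2>+ (log2 fold change 2.96, SE 0.48, edgeR adjusted p = 0.0024). The gene pirk, which restrains the Imd pathway and is not on this list, had 13.3, 6.48 and 11.1 CPM in Mef2>Deaf1, against 1.33, 1.82 and 0.997 CPM in Mef2>+ (2.90, SE 0.46, edgeR adjusted p = 0.0024). Replicate 2 was the lowest Mef2>Deaf1 library for both genes and still lay above every Mef2>+ library. PGRP-LA (−0.71, SE 0.11, edgeR adjusted p = 0.0022) and GNBP2 (−0.99, SE 0.19, edgeR adjusted p = 0.0057), which belong to families that recognise microbes, were lower. No antimicrobial peptide gene of 14 tested was higher and 1 was lower, a call that was lost without Mef2>Deaf1 replicate 1 or 3 or Mef2>+ replicate 2 and with the replicate block (without Mef2>+ replicate 3 there were 2). The attacin AttB had 63.2, 5.38 and 26.4 CPM in Mef2>Deaf1 and 4.40, 3.85 and 8.42 CPM in Mef2>+, a spread between replicates that left it uncalled (2.51, SE 0.97, edgeR adjusted p = 0.12). Without Mef2>Deaf1 replicate 2, 6 genes of humoral immunity were higher and 2 lower, and 1 was higher without any other library of the 6 and with the replicate block.

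Some genes changed by amounts far beyond the spread of every library in the series. Cyp4p2, a cytochrome P450, had 0.132, 0.121 and 0.149 CPM in Mef2>Deaf1, against 35.9, 35.4 and 38.2 CPM in Mef2>+ (log2 fold change −8.04, SE 0.13, edgeR adjusted p = 2.4e-12). The other 9 libraries held 39.9 to 144 CPM, so this gene was almost silent in Mef2>Deaf1 alone. The photolyase gene phr, whose enzyme repairs ultraviolet damage with light, had 7.91, 8.18 and 7.28 CPM in Mef2>Deaf1, against 33.5, 36.1 and 36.8 CPM in Mef2>+ (−2.19, SE 0.08, edgeR adjusted p = 1.1e-08). Its exons overlap those of Prosalpha1 on the opposite strand, and whether the counting used strand is not stated. The transporter gene rtet (−1.71, SE 0.12, edgeR adjusted p = 1.1e-05) and CG5941 (MCTS1), a factor that helps ribosomes restart (−1.06, SE 0.07, edgeR adjusted p = 8.0e-06), were lower with as little spread.

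On the higher side, CG9877, a gene with no known role given here, had 888, 749.8 and 732 CPM in Mef2>Deaf1, against 139, 145 and 133 CPM in Mef2>+ (log2 fold change 2.51, SE 0.18, edgeR adjusted p = 1.1e-05). At that level it was among the abundant transcripts of the fillet. The DNA repair nuclease gene mre11 had 27.2, 26.4 and 27.8 CPM in Mef2>Deaf1, against 11.05, 9.92 and 12.4 CPM in Mef2>+ (1.29, SE 0.09, edgeR adjusted p = 1.1e-05), with exons that overlap Osi21 on the opposite strand. MFS17, a solute transporter of the major facilitator family, was also higher (0.998, SE 0.10, edgeR adjusted p = 9.9e-05). The odorant binding protein gene Obp46a had 11.4, 10.8 and 11.8 CPM in Mef2>Deaf1 and 0, 0.0675 and 0 CPM in Mef2>+. These are 765 counts against 1 count, a ratio of 594 with an exact 95% Poisson interval of 106 to 23487 that covers counting error only, and no other genotype had a count. Against Mef2>whiteRNAi each of Cyp4p2, phr, rtet, CG5941, nimC1, CG9877, mre11 and MFS17 was called in the same direction, with log2 fold changes of −8.25, −2.01, −1.58, −0.85, 2.51, 2.09, 1.30 and 0.98, and without any 1 library each stayed called.

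**Figure D3:**
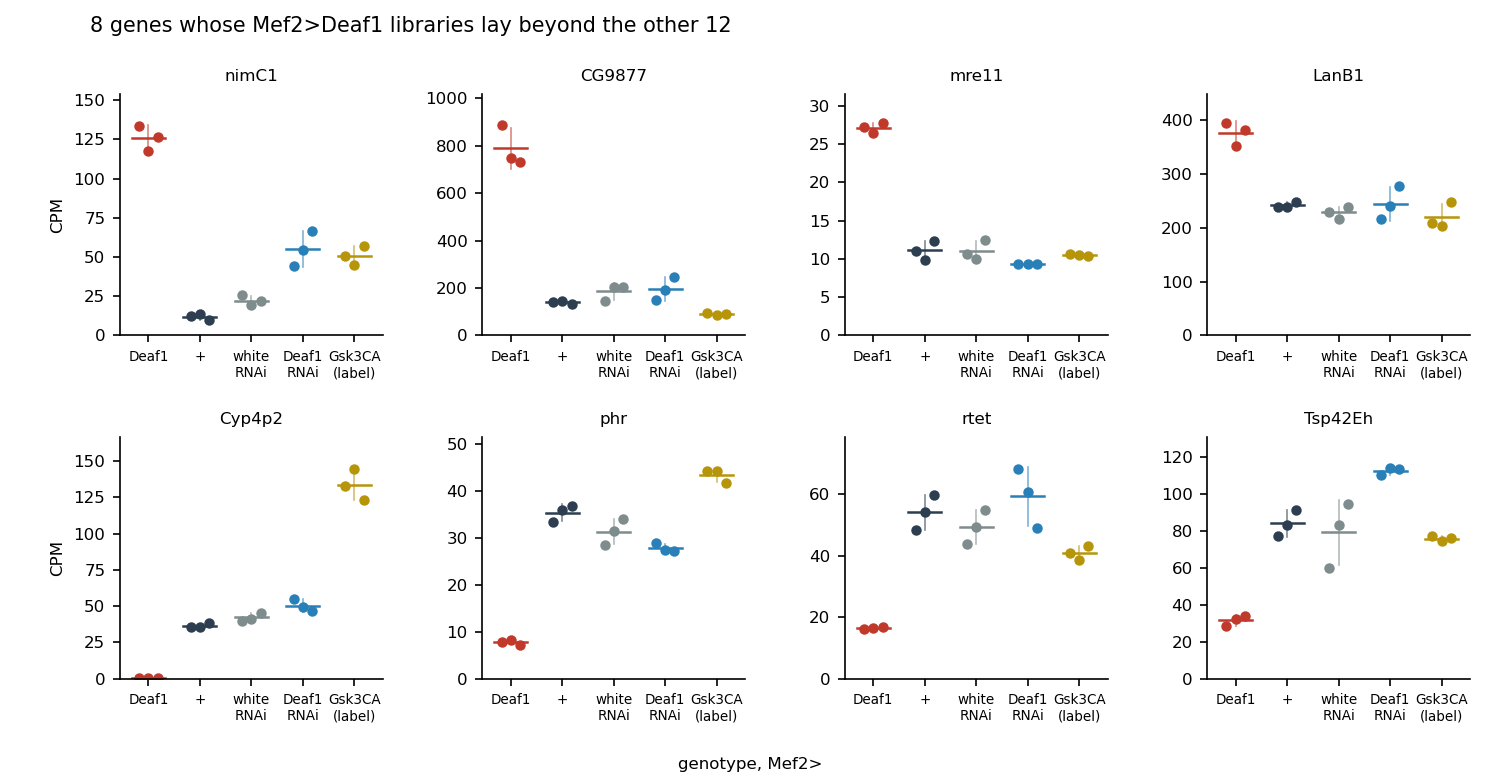
CPM (vertical axes, from 0) of 8 genes in each of the 15 libraries, grouped by genotype (horizontal axes); points are libraries, horizontal lines are means and thin vertical lines are 1 SD of 3 libraries. For nimC1, CG9877, mre11 and LanB1 all 3 Mef2>Deaf1 libraries lie above the other 12, and for Cyp4p2, phr, rtet and Tsp42Eh all 3 lie below them.

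Among genes for the handling of foreign compounds more were called lower than higher. Of 65 cytochrome P450 genes 17 were lower and 2 higher (median −0.41, 1 or 2 higher without any 1 library). In 11 of the 65 the Mef2>Deaf1 libraries lay below the other 12, beside 191 of all 10930 genes tested. Beside Cyp4p2, its paralog Cyp4p1 had 1.502, 0.729 and 2.03 CPM in Mef2>Deaf1, against 15.5, 13.6 and 17.997 CPM in Mef2>+ (log2 fold change −3.48, SE 0.27, edgeR adjusted p = 2.1e-05). Cyp6a2, known from insecticide resistance, had 0.751, 0.324 and 0.545 CPM in Mef2>Deaf1, against 12.3, 12.7 and 19.99 CPM in Mef2>+ (−4.79, SE 0.50, edgeR adjusted p = 1.8e-04). Cyp4e2 went the other way, with 83.1, 73.3 and 83.2 CPM in Mef2>Deaf1, against 53.4, 54.0 and 41.5 CPM in Mef2>+ (0.69, SE 0.09, edgeR adjusted p = 8.8e-04). Cyp4g1, the oenocyte enzyme that makes cuticle hydrocarbons and the most abundant P450 here, did not pass (−0.27, SE 0.12, edgeR adjusted p = 0.16). Leaving out 1 library at a time called 12 to 14 P450 genes lower, and against Mef2>whiteRNAi 11 were lower and 4 higher.

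Glutathione transferases, which attach glutathione to toxic compounds, had 7 of 16 genes lower and 1 higher, with a median of −1.09. The higher gene was called in none of the fits without 1 library. GstD1 had 503, 448 and 399 CPM in Mef2>Deaf1, against 906, 897 and 958 CPM in Mef2>+ (log2 fold change −1.03, SE 0.12, edgeR adjusted p = 2.7e-04). GstD3 fell further (−2.23, SE 0.28, edgeR adjusted p = 5.4e-04). GstE5, GstE6, GstE7 and GstE8, which lie side by side on 2R, were all lower, by −1.16, −1.38, −1.996 and −1.87. They are close paralogs, so reads that fit more than 1 of them could have been left out, and GstE5 missed 0.05 without Mef2>Deaf1 replicate 1 or 2 (adjusted p = 0.054 and 0.060) or Mef2>+ replicate 3 (0.065). GstE3 and GstE9 of the same cluster were not called (0.293 and 1.4955). Without 1 library 5 to 7 were lower, and against Mef2>whiteRNAi 5 were lower and none higher. Of 7 UDP-glycosyltransferase genes 2 were lower and none higher, where 7.38% of all genes were lower. The tetraspanins, a family of small proteins that span the membrane, had 5 of 29 genes lower and 3 higher (median −0.04). Without Mef2>Deaf1 replicate 3 or Mef2>+ replicate 3 none was higher, and without the others 2 or 3 were. All 5 lower genes came from the Tsp42E cluster, which makes up a large part of the list, and all 5 stayed called without any 1 library. Tsp42Eg had 12.01, 10.04 and 9.21 CPM in Mef2>Deaf1, against 41.5, 38.9 and 47.6 CPM in Mef2>+ (−2.03, SE 0.16, edgeR adjusted p = 2.1e-05). Tsp42Eh changed by −1.41 and Tsp42Eo by −1.24 with SEs of 0.14 and 0.13. Tsp42Ee of the same cluster had 651, 623 and 737 CPM in Mef2>Deaf1 and 601, 606 and 409 CPM in Mef2>+, and did not pass (0.31, edgeR adjusted p = 0.23).

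Some of the largest falls were in cuticle genes. Of 59 cuticle protein genes tested 16 were lower and none higher (median −0.99), and of 12 Tweedle genes 4 were lower. Lcp65Ag1, a larval cuticle protein, had 1.06, 0.688 and 0.842 CPM in Mef2>Deaf1, against 273, 251 and 130.5 CPM in Mef2>+ (log2 fold change −7.98, SE 1.43, edgeR adjusted p = 0.0043). Cpr47Eg had 0.0883, 0.162 and 0.594 CPM in Mef2>Deaf1, against 131, 127 and 63.1 CPM in Mef2>+ (−8.61, SE 1.78, edgeR adjusted p = 0.0086). TwdlP had 3 counts in all in Mef2>Deaf1 and 1272 in Mef2>+, or 0.0442, 0.0809 and 0 CPM against 32.9, 27.1 and 12.6 CPM (ratio of counts 0.00183, exact 95% Poisson interval 3.8e-04 to 0.0054, for counting error only). These genes were also low in both RNAi genotypes. Mef2>whiteRNAi held at most 4.07 CPM of Lcp65Ag1, 0.884 CPM of Cpr47Eg and 0.0465 CPM of TwdlP, and replicate 3 of the libraries labelled Mef2>Gsk3CA held 204, 248 and 18.5 CPM.

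The most abundant cuticle genes differed from each other. Lcp3, a larval cuticle protein gene named here after its values were seen, had 7779, 9681 and 5435 CPM in Mef2>Deaf1, against 45774, 42831 and 53403 CPM in Mef2>+ (log2 fold change −2.63, SE 0.49, edgeR adjusted p = 0.0050), and 4472, 5735 and 17317 CPM in Mef2>whiteRNAi. It was called in each of the 6 fits without 1 library. Lcp4, a major larval cuticle protein, had 46421, 50924 and 35464 CPM in Mef2>Deaf1 and 29554, 28727 and 32310 CPM in Mef2>+ (0.55, SE 0.34, edgeR adjusted p = 0.34), and Lcp1 overlapped (0.12, edgeR adjusted p = 0.75). The summed level of the 104 cuticle genes in the files was 115024 to 137067 CPM in Mef2>Deaf1 and 145888 to 150830 CPM in Mef2>+, which did not overlap. Limma voom called 7 of the 59 lower, and without Mef2>Deaf1 replicates 1, 2 and 3 the count was 10, 10 and 8 and without Mef2>+ replicates 1, 2 and 3 it was 11, 13 and 9. Tweedle calls numbered 1, 1, 1, 1, 2 and 2 in those fits. Against Mef2>whiteRNAi 3 cuticle genes were lower and 1 higher. Cpr49Ad was the cuticle gene with the tightest replicates, with 3.14, 2.67 and 2.43 CPM in Mef2>Deaf1, against 19.1, 16.9 and 15.7 CPM in Mef2>+ (−2.65, SE 0.17, edgeR adjusted p = 3.7e-06). Beside 5.06% higher and 7.38% lower over all genes, 3 of 27 genes of chitin synthesis and turnover were higher and 4 lower. With the replicate block these counts were 2 and 1. Without Mef2>Deaf1 replicates 1, 2 and 3 they were 1 and 1, 2 and 1, and 1 and 1, and without Mef2>+ replicates 1, 2 and 3 they were 1 and 1, 2 and 3, and 1 and 1. Idgf1, a chitinase-like growth factor, rose in each of these fits (1.90, SE 0.28, edgeR adjusted p = 0.0016), and Cht7, a chitinase, was lower in each (−0.71, SE 0.15, edgeR adjusted p = 0.010).

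**Figure D4:**
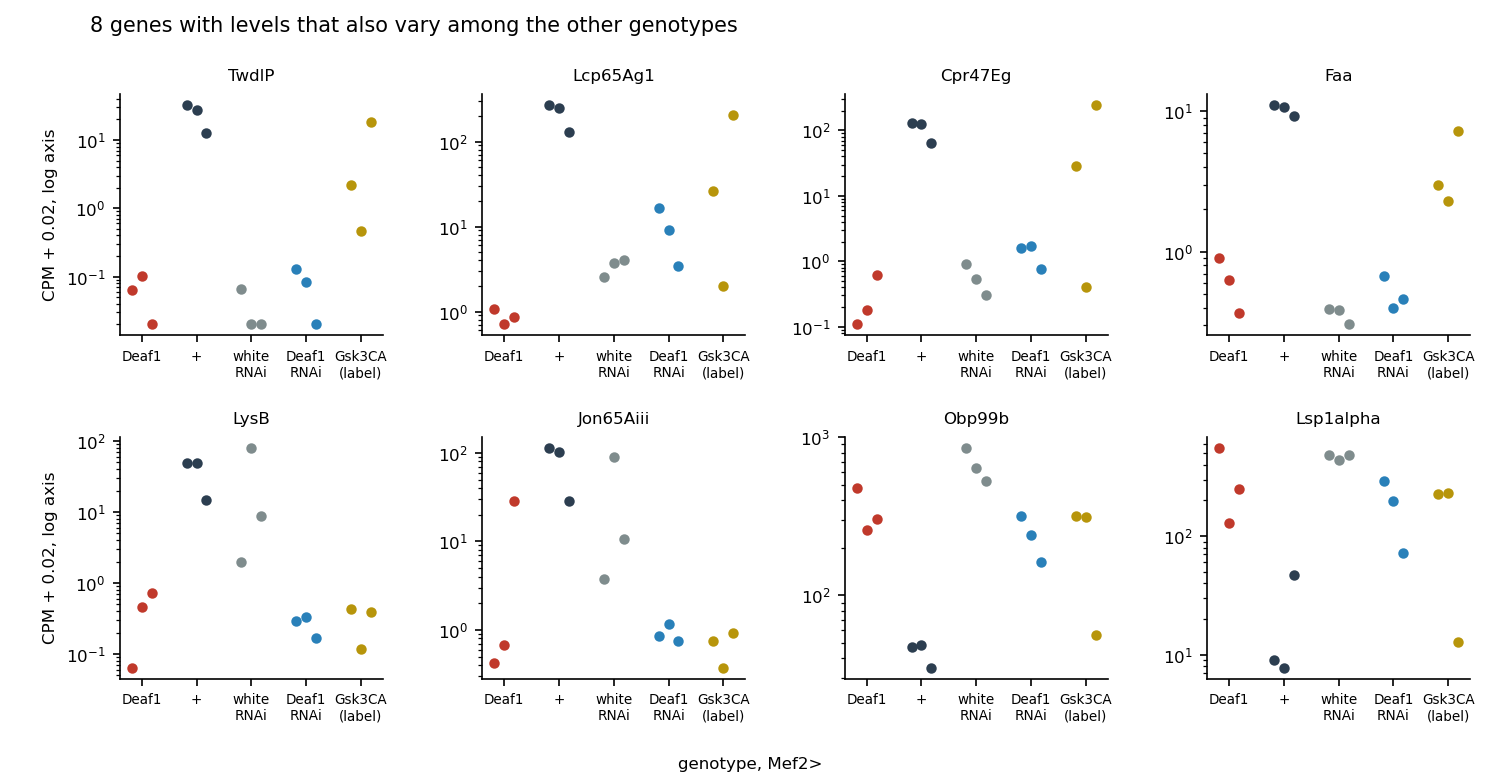
CPM plus 0.02 (vertical axes, log scale) of 8 genes in each of the 15 libraries, grouped by genotype (horizontal axes); points are libraries. TwdlP, Lcp65Ag1 and Cpr47Eg are low in Mef2>Deaf1 and in both RNAi genotypes and high in Mef2>+ and in replicate 3 of the libraries labelled Mef2>Gsk3CA, Faa has a like order, and LysB and Jon65Aiii are high in Mef2>+ and in replicate 2 of Mef2>whiteRNAi.

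Genes of the digestive tract were uneven between libraries. The lysozyme genes LysB, LysC, LysD and LysE, expressed in the larval midgut, were 4 of 5 tested and all lower. LysB had 0.0442, 0.445 and 0.693 CPM in Mef2>Deaf1, against 49.2, 48.4 and 14.6 CPM in Mef2>+ (log2 fold change −6.57, SE 1.32, edgeR adjusted p = 0.0073), and Mef2>whiteRNAi held 1.95, 80.1 and 8.72 CPM. These 4 genes are neighbours on 3L and nearly identical, so their reads are hard to assign. Limma voom called none of the 4. Fits without 1 library called 3 or 4, and LysC missed 0.05 without Mef2>Deaf1 replicate 1 or 2 (adjusted p = 0.086 and 0.084) or Mef2>+ replicate 1 or 2 (0.055 and 0.051). The digestive protease list summed to 6.49, 6.44 and 119 CPM in Mef2>Deaf1 and 400.3, 364 and 110.1 CPM in Mef2>+, so that 1 library of each group was close to the other group, and 3 of 16 tested genes were lower. Without Mef2>Deaf1 replicates 1, 2 and 3 the count was 1, 1 and 6, and without Mef2>+ replicates 1, 2 and 3 it was 2, 2 and 3. Jon65Aiii, a serine protease, had 0.397, 0.648 and 28.7 CPM in Mef2>Deaf1 and 114, 103 and 28.4 CPM in Mef2>+ and did not pass (−3.06, SE 1.37, edgeR adjusted p = 0.18). The part of gut carried into a fillet in these values was not tested.

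Other tissue signals were of the same patchy kind. The 8 salivary glue genes summed to 1.41, 6.52 and 16.2 CPM in Mef2>Deaf1 and 122, 112 and 12.6 CPM in Mef2>+, and none was called by edgeR, 6 by DESeq2. Of 7 Halloween genes, which make ecdysone in the prothoracic gland, 3 were called higher. Among them spok (edgeR adjusted p = 0.045, 0.15 with the replicate block) had 0.132, 21.7 and 0 CPM in Mef2>Deaf1 and 0, 0.0675 and 0.0554 CPM in Mef2>+. Its signal came from replicate 2, without which the adjusted p was 0.82 and no Halloween gene was called. No Halloween gene was called without Mef2>+ replicate 1 or 3 either, 1 was called without Mef2>+ replicate 2 and with the replicate block, and 2 without Mef2>Deaf1 replicate 1 or 3. The fat body storage protein gene Lsp1alpha had 555, 129 and 252 CPM in Mef2>Deaf1, against 9.003, 7.76 and 47.2 CPM in Mef2>+ (log2 fold change 3.87, SE 1.05, edgeR adjusted p = 0.032), with a block adjusted p of 0.080. It missed 0.05 without Mef2>Deaf1 replicate 1 or 3 (0.098 and 0.062) and without Mef2>+ replicate 1 or 2 (0.12 and 0.10). Its paralogs Lsp1beta and Lsp2 overlapped between the groups. Obp99b, an odorant binding protein gene, had 479.6, 258 and 302 CPM in Mef2>Deaf1, against 47.4, 48.4 and 34.8 CPM in Mef2>+ (2.99, SE 0.54, edgeR adjusted p = 0.0043). It was at 525 to 857 CPM in Mef2>whiteRNAi, above both compared groups.

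A few enzymes of amino acid breakdown were lower, 4 of 23 tested, with none higher. Faa, the last enzyme of tyrosine breakdown, had 0.883, 0.607 and 0.347 CPM in Mef2>Deaf1, against 11.1, 10.7 and 9.25 CPM in Mef2>+ (log2 fold change −4.06, SE 0.46, edgeR adjusted p = 2.7e-04), and 0.285 to 0.372 CPM in Mef2>whiteRNAi. Oat, ornithine aminotransferase, had 97.4, 97.7 and 101 CPM in Mef2>Deaf1, against 173, 177 and 132 CPM in Mef2>+ (−0.70, SE 0.12, edgeR adjusted p = 0.0031). For Oat the other 9 libraries were also high, at 153 to 216 CPM. Of 9 oenocyte genes 2 were lower (2 or 3 without any 1 library), where 7.38% of all genes were lower. Both are lipid elongases. They were bond (−1.49, SE 0.20, edgeR adjusted p = 9.2e-04) and CG18609 (−5.58, SE 0.93, edgeR adjusted p = 0.0029). Of 12 glial genes 1 was higher and none lower, and of 19 neuronal genes 1 was higher and 1 lower, counts near those over all genes. The glial glutamate transporter Eaat1 had 18.02, 19.0 and 18.3 CPM in Mef2>Deaf1, against 5.63, 5.46 and 7.20 CPM in Mef2>+ (1.596, SE 0.18, edgeR adjusted p = 2.4e-04), and unc-13, which primes synaptic vesicles, changed by 1.15 (SE 0.17, edgeR adjusted p = 0.0013). The activin ligand daw had 96.4, 59.6 and 140 CPM in Mef2>Deaf1, against 41.7, 42.4 and 50.4 CPM in Mef2>+ (1.14, SE 0.24, edgeR adjusted p = 0.011).

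Called genes were spread over all chromosome arms. The share of higher genes was 4.54 to 6.12% on the 5 large arms and 15.4% on the small chromosome 4 (12 of 78 tested), and the share of lower genes was 6.52 to 8.36% on the 5 large arms and 7.69% on chromosome 4. Runs of at least 3 neighbouring tested genes called in 1 direction numbered 4 for higher and 12 for lower genes and held 12 and 39 genes. The longest were 4 genes, among them GstE5 to GstE8 on 2R and LysB to LysE on 3L. TwdlP, TwdlL and TwdlO on 3R formed a run of 3 lower genes (TwdlL was called in 1 and TwdlO in none of the 6 fits without 1 library), and HLHmbeta, malpha and m2, targets of Notch signalling in the Enhancer of split complex on 3R, a run of 3 higher genes.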

How the data were processed

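RNA-seq was made from larval fillets, 3 libraries for each of 5 genotypes. Per the labels and the study's methods, reads were base-called with CASAVA 1.7, aligned with STAR and counted per gene with HTSeq, and the deposited values are whole-number counts per gene for each sample. The authors' alignment used an older fly build than the annotation used here (BDGP6), so no coordinates are given; 15238 of 15682 gene symbols (97.2%) matched it. Summary lines on unassigned reads were dropped from library sizes and tests; those on no feature were 5.43 to 6.27% in Mef2>Deaf1 and 3.36 to 3.87% in Mef2>+. Whether counting used strand is not stated, and neither are the sequencing lanes of the libraries, which were run 6 to a lane.

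Counts of all 15 libraries were fitted with edgeR 4.0.16 in R 4.3.3 (TMM factors, filterByExpr by genotype, glmQLFit and glmQLFTest, 10 residual degrees of freedom), and p-values were adjusted by Benjamini-Hochberg over 10930 genes. Positive log2 fold changes mean higher in Mef2>Deaf1. With 0 counts in a group the floor was 3 counts, and intervals of count ratios are exact at 95%. The edgeR script was tested on simulated counts. Alternatives used DESeq2 1.42.0, limma 3.58.1 (voom), other filters, size factors and sample sets, a replicate block, and each library left out. Deviations of libraries with the same replicate number correlated between the 2 genotypes at 0.304, 0.242 and 0.478. All were over the cut of 0.1, and the numbers were treated as pairs in the block. Pairing was not checked in the other genotypes, although all 15 libraries were fitted. Libraries with different numbers correlated at −0.500 to 0.458, the highest being Mef2>Deaf1 replicate 1 with Mef2>+ replicate 2. That pair also passed the cut, and the labels do not say what a number marks. The pigment and eye color list was lowest in replicate 3 of Mef2>+ (3553, 3533 and 357 CPM) and of Mef2>whiteRNAi (6551, 4734 and 431 CPM). It was highest in replicate 3 of the libraries labelled Mef2>Gsk3CA (738, 374 and 3501 CPM). The same held for Mef2>Deaf1 (3222, 1676 and 3474 CPM) and Mef2>Deaf1RNAi (1342, 1806 and 2285 CPM). The study's methods call the 3 libraries of a genotype biological replicates. The genes and the 75 gene lists were chosen with earlier results of these data known. Named genes were taken from Deaf1, w, the 15 largest rises and falls (adjusted p under 0.05, average log2 CPM of at least 1, groups apart), the 10 smallest p-values per direction, and from each list up to 6 called members per direction by fold change and up to 3 members not called by level; runs of neighbours and the genes of the closing observations were picked after their values were seen.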

Additional observations from a re-analysis of the deposited data

Results flagged for a closer look

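A pair of shares outside the gene counts differed between the groups. Reads on no annotated feature took 5.91 ± 0.433% of the entries in Mef2>Deaf1 and 3.64 ± 0.258% in Mef2>+ (SD, n = 3 libraries each), and the other 9 libraries held 5.30 to 6.75%. Reads with more than 1 alignment took 4.15 ± 0.191% in Mef2>Deaf1 and 2.56 ± 0.0345% in Mef2>+, and the other 9 libraries held 3.55 to 5.68%. In both shares Mef2>+ was the genotype below all others. These reads enter no gene count, and their part in the comparisons was not tested.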

How the results depend on the processing

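The total of 1360 genes was 711 to 958 without any 1 library (246 to 389 higher and 465 to 628 lower), and Mef2>whiteRNAi in place of Mef2>+ gave 717, of which 309 were lower. DESeq2 called 846 genes higher. Members of all lists together were called in 175 to 234 cases without any 1 library and in 148 against Mef2>whiteRNAi. Deaf1 passed 0.05 at 0.31 with RLE size factors (adjusted p = 0.037), at 0.29 with an average log2 CPM of at least 1 (0.028), at 0.28 without the libraries labelled Mef2>Gsk3CA (0.037) and at 0.31 in DESeq2 (0.012), and was 0.24 to 0.36 without any 1 library.

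The replicate block is given as a further setting only, since the replicate numbers are not shown to mark pairs. The block called 1017 genes, 394 higher and 623 lower, and Deaf1 had an adjusted p of 0.11 under it. Among the genes named in the text, the block changed no call other than those of Lsp1alpha, LanB2, spok and Hem (adjusted p = 0.055 for Hem). Against Mef2>whiteRNAi the log2 fold change had the other sign for w (1.22, where RNAi targets w itself), Lsp1alpha (−0.59), Obp99b (−0.96), TwdlP (1.43), CG7759 (0.021), CG6439 (0.012), Scsalpha (0.13), CG1746 (0.050), Argk (0.25), GluRIIA (0.027), Rya-r44F (0.0034), Ca-P60A (0.045), Gp93 (0.045), spok (−1.78), TwdlO (3.22), TwdlL (0.94), CG18609 (0.21), bond (0.048), Cyp4g1 (0.60), PO45 (−1.0017), proPO-A1 (−0.91), PGRP-LA (0.026), GstE3 (−1.32) and Faa (0.83), and of these only w, Cyp4g1 and GstE3 passed 0.05 there. Of genes not called, Lsp2 was 0.017 in limma voom. Without any 1 library Treh was −0.12 to 0.080, Lsp2 −0.30 to 0.47 and Lsp1beta −0.85 to 0.86. Fits without 1 library have fewer samples and less power. The promoter motif comparison was not run, since no promoter sequences were used here. Counts are read counts without molecular identifiers, so intervals cover counting error only.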

Other observations

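Some groups of related genes outside the lists were collected after their values had been seen, and they are given as values without a test of the group. Of 14 tested genes that pair a SET with a MYND domain, the MYND finger being also found in Deaf1, 8 were lower in Mef2>Deaf1 and none higher, with a median log2 fold change of −0.85, and 6 or 7 were called without any 1 library. CG7759 (Smyd4-3) had 4.68, 4.65 and 5.25 CPM in Mef2>Deaf1, against 16.9, 16.3 and 17.9 CPM in Mef2>+ (−1.81, SE 0.11, edgeR adjusted p = 2.8e-06). CG8503 (SmydA-1) had 24.6, 24.1 and 26.1 CPM in Mef2>Deaf1, against 44.7, 45.5 and 42.0 CPM in Mef2>+ (−0.82, SE 0.10, edgeR adjusted p = 5.0e-04). Against Mef2>whiteRNAi none of the 14 was called.

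The regulatory and catalytic subunits of protein kinase A, which carries cyclic AMP signals, were lower in 3 of 5 genes. Pka-R2 had 198, 141 and 162 CPM in Mef2>Deaf1, against 407, 403 and 502 CPM in Mef2>+ (−1.39, SE 0.24, edgeR adjusted p = 0.0038). Of 8 genes of the dystrophin complex, which ties the muscle cytoskeleton to the matrix, 4 were lower. Dys itself had 141, 130.0 and 131 CPM in Mef2>Deaf1, against 187, 188 and 195 CPM in Mef2>+ (−0.51, SE 0.07, edgeR adjusted p = 8.8e-04), and Dg, which encodes the matrix receptor dystroglycan, overlapped between the groups (0.05, edgeR adjusted p = 0.89). Genes of the Arp2/3 and WAVE complexes, which branch actin, were higher in 4 of 13 cases by small amounts, 0.37 for Arp14D (Arp2) and 0.26 for Hem among them. Over all genes tested, 5.06% were higher and 7.38% lower. Without Mef2>Deaf1 replicates 1, 2 and 3 and then Mef2>+ replicates 1, 2 and 3, the calls numbered 3, 2, 1, 3, 3 and 1 for protein kinase A, 3, 1, 1, 1, 3 and 2 for the dystrophin complex, and 1, 1, 1, 2, 3 and 1 for Arp2/3 and WAVE. With the replicate block 1 of the 4 Arp2/3 and WAVE calls was left, and the calls of the other groups numbered as before. Against Mef2>whiteRNAi 1 gene of the dystrophin complex was lower, and no gene of protein kinase A or of Arp2/3 and WAVE was called.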
